A study of Mus musculus with 8 samples.

Results

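The genes described here are 10 members of the Notch pathway in mouse epidermis: the receptors Notch1, Notch2 and Notch3, the ligands Jag1, Jag2 and Dll1, the receptor-modifying enzyme Lfng, the γ-secretase subunit Aph1b and the target genes Hes1 and Hey1. They were taken by symbol from the 19591 gene symbols listed in the bulk and single-cell tables, and all 10 were listed. Aph1b was chosen by its bulk values, since it was among the largest rises in Troy-EGFP+ cells, and its bulk values are therefore a description without a test.

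In the Notch pathway, a ligand on one cell binds a receptor on its neighbour. The receptor is then cut by an ADAM protease and by γ-secretase, a complex whose subunits include nicastrin, APH1 and PEN2. The freed intracellular part enters the nucleus, where it joins RBPJ and Mastermind-like proteins and turns on genes such as those of the Hes and Hey families. In skin the pathway is known for its part in the step from basal to spinous keratinocyte and in hair follicle differentiation.

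The libraries compared all came from adult C57BL/6 mice that carried the Troy-EGFP-IRES-CreERT2 knockin, in which the reporter cassette takes the place of the protein-coding region of Troy (Tnfrsf19). Bulk libraries held viable (DAPI-) cells, ITGA6bright Troy-EGFP+ cells and ITGA6bright Troy-EGFP- cells of the epidermis of 2 mice. Single epidermal cells, EGFP+ and EGFP-, were sequenced in plates from 4 mice of the same genotype, here called EGFP mice. A further 2 plates held tdTomato+ and tdTomato- cells of mice that carried Troy-EGFP-IRES-CreERT2 together with Rosa26-LSL-tdTomato, here called traced mice, which were homozygous for both alleles and had received tamoxifen, so that cells in which Troy drives Cre, and their progeny, carry tdTomato. All mice thus carried the knockin, and mice without it were not analysed here.

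The 6 bulk libraries held 157537 to 453005 counts. Of 2304 wells, 1109 had at least 1000 transcripts and were kept, between 71 and 262 per plate. The kept wells were clustered without the members and the rest of the pathway list among the clustering genes, and 4 epidermal classes were named by their markers: IFE I-like (undifferentiated basal interfollicular epidermis), IFE II-like (committed interfollicular epidermis), lower HF-like (lower hair follicle) and upper HF-like. Transcripts were summed per mouse and class where a mouse had at least 10 cells of the class, which gave 20 sums of 14 to 79 cells and 50474 to 314667 transcripts from EGFP mice 2, 3 and 4 and traced mice 1 and 2. EGFP mouse 1, whose plate was the shallowest, had under 10 cells in each class. Krt14 in IFE I-like sums ranged from 6696 to 9169 CPM (counts or transcripts scaled to a common library size), Krt10 in IFE II-like sums from 9019 to 17928 CPM, Postn in lower HF-like sums from 1503 to 4664 CPM and Krt79 in upper HF-like sums from 5413 to 9172 CPM. The gene replaced by the knockin, Tnfrsf19, had 41 and 16 counts in Troy-EGFP+ cells against 3 and 6 in Troy-EGFP- cells. In IFE I-like sums it reached 99.6 to 125 CPM in EGFP mice, and 3.02 and 12.8 CPM in the traced mice.

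The bulk comparison asks which genes set ITGA6bright Troy-EGFP+ cells apart from ITGA6bright Troy-EGFP- cells. Itga6, the transcript of the sort marker, was at 129 and 205 CPM in Troy-EGFP+ cells and 107 and 164 CPM in viable cells. In Troy-EGFP- cells it was lower, at 27.6 and 79.4 CPM, although they were sorted as bright for the protein. Receptor, ligand and target transcripts were found in both populations, and none of the 5 members tested was called different between them. Of the 10 members, 6 passed the filter on low counts (Notch1, Notch3, Jag1, Jag2, Hes1 and Aph1b). Leaving out Aph1b, 0 of 5 were called by edgeR's quasi-likelihood test at an adjusted p of 0.05, against 7.05% of the 4653 genes tested. In that fit 0 of the 5 had a p under 0.05 before adjustment, and DESeq2 called 0. Without the filter, Jag2 (log2 fold change 0.94) and Notch2 (1.69) had unadjusted edgeR p of 0.0477 and 0.0204 (adjusted p = 0.470 and 0.305). With the mouse as a block, Jag2 had an unadjusted edgeR p of 0.0466 (adjusted p = 0.222). Over the 5 members without Aph1b, the median log2 fold change was 0.31, against -0.04 over all genes tested.

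Notch1 (chr2:26457903-26516663, minus strand, GRCm38), the main receptor of keratinocytes, had 128 and 64 counts in Troy-EGFP+ cells, against 32 and 46 in Troy-EGFP- cells and 75 and 151 in viable cells. Scaled to library size this was 317 and 267 CPM in Troy-EGFP+ cells, 221 and 243 CPM in Troy-EGFP- cells and 244 and 313 CPM in viable cells. Between Troy-EGFP+ and Troy-EGFP- cells its log2 fold change was 0.31 with a standard error (SE) of 0.297 and an adjusted p of 0.623 (edgeR). Both Troy-EGFP+ libraries lay above both Troy-EGFP- libraries in Notch1, and the viable libraries spanned the gap between them.

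Notch3 (chr17:32120820-32166852, minus strand) had 52.0 and 33.4 CPM in Troy-EGFP+ cells, 6.90 and 42.3 CPM in Troy-EGFP- cells and 42.2 and 37.3 CPM in viable cells, so the sorted populations overlapped. Its log2 fold change of Troy-EGFP+ over Troy-EGFP- cells was 0.70 (SE 0.618, edgeR adjusted p = 0.584), and it rested on the Troy-EGFP- libraries, at 0.065 without that of mouse 1 and 2.67 without that of mouse 2 (edgeR adjusted p = 0.979 and 0.0867). Notch2 (chr3:98013527-98150361, plus strand) stayed under the filter, with 15 and 8 counts in Troy-EGFP+ cells, against 0 and 4 in Troy-EGFP- cells and 9 and 8 in viable cells.

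Jag1 (chr2:137081456-137116644, minus strand), a ligand of the Jagged class, had 66.9 and 45.9 CPM in Troy-EGFP+ cells, 69.0 and 52.9 CPM in Troy-EGFP- cells and 58.5 and 47.7 CPM in viable cells. Its log2 fold change between the sorted populations was -0.07 (SE 0.438, edgeR adjusted p = 0.957). The other Jagged ligand, Jag2 (chr12:112907819-112929776, minus strand), had 71.8 and 96.0 CPM in Troy-EGFP+ cells, 6.90 and 79.4 CPM in Troy-EGFP- cells and 35.7 and 74.7 CPM in viable cells. Its log2 fold change was 0.77 (SE 0.560, edgeR adjusted p = 0.490). The Troy-EGFP- libraries differed from each other in Jag2 by 1 against 15 counts, and the value rested on them: the log2 fold change was 0.027 without the Troy-EGFP- library of mouse 1 (edgeR adjusted p = 0.990) and 3.54 without that of mouse 2 (edgeR adjusted p = 0.00256). The second fit set the Troy-EGFP+ libraries against 1 library with 1 Jag2 count, took that library to vary like the other groups, and called 751 genes against 328 with all libraries.

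Dll1 (chr17:15367354-15376872, minus strand), a Delta-like ligand, was under the filter with 12 and 5 counts in Troy-EGFP+ cells, against 3 and 4 in Troy-EGFP- cells and 1 and 8 in viable cells. Hes1 (chr16:30064384-30067796, plus strand), a transcriptional repressor and Notch target, had 99.1 and 96.0 CPM in Troy-EGFP+ cells, 96.7 and 138 CPM in Troy-EGFP- cells and 133 and 118 CPM in viable cells. The Hes1 log2 fold change between the sorted populations was -0.30 (SE 0.349, edgeR adjusted p = 0.687), and their ranges overlapped. The other target, Hey1 (chr3:8663359-8667256, minus strand), had 5 counts in the 6 libraries together, and Lfng (chr5:140607320-140615545, plus strand), a glycosyltransferase that modifies the receptors, had 16.

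**Figure D1:**
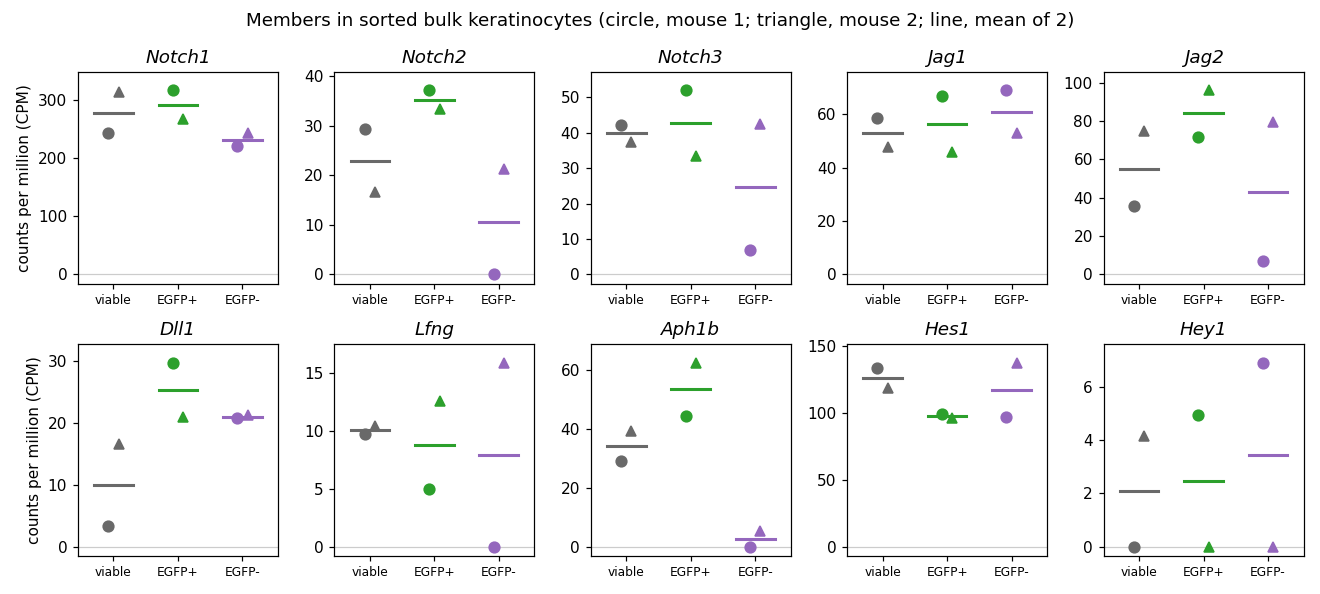
Each panel plots 1 member in CPM in the viable, Troy-EGFP+ and Troy-EGFP- bulk libraries, with a circle for mouse 1, a triangle for mouse 2 and a line at the mean of both. Aph1b lay at 44.6 and 62.6 CPM in Troy-EGFP+ cells and at 0 and 5.29 CPM in Troy-EGFP- cells, while the 2 sorted populations overlapped in Notch3, Jag1, Jag2 and Hes1.

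Aph1b encodes one of the alternative APH1 subunits of γ-secretase and lies at chr9:66775202-66795490 on the minus strand. It had 18 and 15 counts in Troy-EGFP+ cells, against 0 and 1 in Troy-EGFP- cells and 9 and 19 in viable cells. In CPM this was 44.6 and 62.6 in Troy-EGFP+ cells and 29.2 and 39.4 in viable cells. Over both mice the ratio of Troy-EGFP+ to Troy-EGFP- cells was 17.8, with a 95% interval from counting error alone of 2.98 to 724, and that of Troy-EGFP+ to viable cells was 1.39 (0.817 to 2.39). With 1 Troy-EGFP- library left out, the fitted log2 fold change of 3.92 between the sorted populations became 3.18 (without mouse 1) or 7.04 (without mouse 2, which leaves that population at 0 counts, so that the value depends on the prior count and is no bound). Aph1b was selected on the first of these contrasts, so nothing is read from its place among the genes called there.

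The neighbouring gene Aph1c (chr9:66814994-66834726, minus strand) encodes a closely related subunit, and 96.1% of the aligned bases of the coding sequences were identical. The last 60 bases of the coding sequences, from the GENCODE transcripts (GRCm38; Aph1b chr9:66779213-66779272 and Aph1c chr9:66819294-66819353, both minus strand), are shown because reads from this part could hardly tell the genes apart; capitals mark the base that differs.
Aph1b: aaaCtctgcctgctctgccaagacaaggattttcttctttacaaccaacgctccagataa
Aph1c: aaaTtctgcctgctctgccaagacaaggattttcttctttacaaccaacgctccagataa
The last 300 bases of the transcripts, nearer to where the 3′-tagged libraries start, were 47.6% identical. How the authors' counting assigned reads shared by both genes is not given in the sources used here, so the split between them is uncertain. Aph1c had 0 counts in 5 of 6 bulk libraries and 2 in a Troy-EGFP- library, against 62 counts of Aph1b in all 6. In the kept wells of the single-cell plates, by contrast, Aph1b had 34 transcripts and Aph1c 35.

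**Figure D2:**
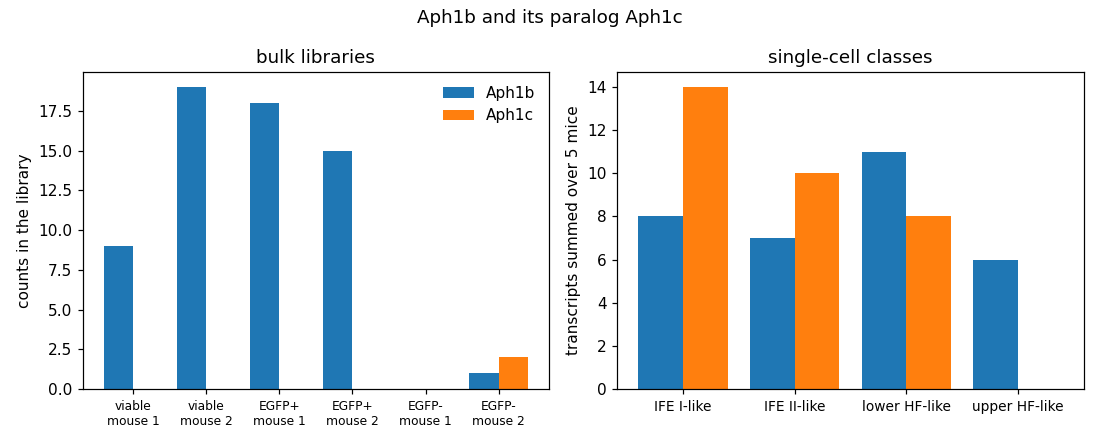
Bars give counts of Aph1b and Aph1c in each bulk library (left) and transcripts summed over 5 mice in each epidermal class (right). Aph1c was at 0 in 5 bulk libraries, while the classes held 8, 7, 11 and 6 transcripts of Aph1b and 14, 10, 8 and 0 of Aph1c.

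Both sorted populations were also compared with viable cells, which share the libraries of the first comparison. In neither comparison did edgeR give a member an unadjusted p under 0.05, and DESeq2 called 0 of those it gave an adjusted p, which in Troy-EGFP- against viable cells left out Jag1 and Notch3. Between Troy-EGFP+ and viable cells 0 of 5 members were called, against 0.473% of genes, with log2 fold changes from -0.37 for Hes1 to 0.49 for Jag2 in the edgeR fit. Between Troy-EGFP- and viable cells 0 of 5 were called as well, against 1.78% of genes, with log2 fold changes from -0.54 for Notch3 to 0.21 for Jag1. Against viable cells, Aph1b had a log2 fold change of 0.55 in Troy-EGFP+ cells and of -3.37 in Troy-EGFP- cells (-2.66 and -6.50 without the Troy-EGFP- library of mouse 1 and of mouse 2), given here without a test. When the mouse 2 library of Troy-EGFP- cells was dropped, Jag2 in Troy-EGFP- against viable cells was at -3.06 (edgeR adjusted p = 0.0285), again from 1 library with 1 count whose spread was taken from the other groups, in a fit that called 464 genes against 83.

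The other 46 genes of the pathway list, which hold ligands, γ-secretase subunits, proteases, glycosyltransferases, nuclear factors, targets and ubiquitin ligases, were measured beside the members. Of the 15 that could be tested in bulk, 1 was lower in Troy-EGFP+ than in Troy-EGFP- cells and 0 were higher, a share near the 7.05% of all genes called. Between Troy-EGFP- and viable cells 1 of 15 was called, against 1.78% of genes. Both calls were of Neurl1b, a ubiquitin ligase that acts on Notch ligands, with 19.8 and 45.9 CPM in Troy-EGFP+ cells, 117 and 95.3 CPM in Troy-EGFP- cells and 22.7 and 35.3 CPM in viable cells. Both Troy-EGFP- libraries lay above the other 4. The log2 fold change of Neurl1b was -1.81 (SE 0.469, edgeR adjusted p = 0.0224) in Troy-EGFP+ against Troy-EGFP- cells and 1.80 (SE 0.450, edgeR adjusted p = 0.0421) in Troy-EGFP- against viable cells. The first call was lost when the mouse 1 library of Troy-EGFP+ cells was dropped (-1.19, edgeR adjusted p = 0.348), with DESeq2 (-1.66, adjusted p = 0.349) and with the sorted libraries alone (-1.80, edgeR adjusted p = 0.0565). The second was lost without the viable library of mouse 1 (1.53, edgeR adjusted p = 0.234) or of mouse 2 (2.17, 0.109), and DESeq2 gave no adjusted p for it. Against viable cells edgeR and DESeq2 each called 0 pathway genes in Troy-EGFP+ cells, among those given an adjusted p.

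The cell makeup of the sorted populations differed. The summed level of 8 upper hair follicle markers, 7 of them detected, was 666 and 822 CPM in Troy-EGFP+ cells against 7042 and 3667 CPM in Troy-EGFP- cells, and that of 8 Langerhans cell markers 102 and 91.9 CPM against 1298 and 1228 CPM. Mir1950 and Kcnq1ot1, a pair of genes taken as a sign of necrotic cells, summed to 7446 and 7970 CPM in Troy-EGFP+ cells and to 12123 and 17020 CPM in Troy-EGFP- cells. The part of these differences in the bulk values was not tested, and in bulk fewer cells of a type and less RNA per cell cannot be told apart.

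In the single cells, the comparison asks how the members differ between undifferentiated basal cells and the other epidermal classes. Each comparison used the same 5 IFE I-like sums, so the 3 comparisons are not independent. Values are given for EGFP mice 2, 3 and 4 and traced mice 1 and 2, in that order. The filter was passed by 5 of 10 members (Notch1, Notch2, Notch3, Jag1 and Hes1); the other 5 are given as transcripts and from a fit without the filter. In IFE II-like cells Notch3 was higher and Jag1 lower than in IFE I-like cells, so 2 of 5 members were called, against 10.1% of genes. In lower HF-like cells Jag1 was higher, 1 of 5, against 13.6% of genes, and in upper HF-like cells Notch3 was higher, 1 of 5, against 11.5% of genes. The median log2 fold change of these 5 members was 1.06, 1.33 and 0.74 in these comparisons. That of all genes was -0.04, 0.03 and -0.01. The members under the filter are not in these medians. For them, the fit without the filter gave log2 fold changes in IFE II-like cells of -5.94 (Lfng), -4.74 (Jag2), -2.50 (Dll1), -1.20 (Hey1) and 0.38 (Aph1b). With the mouse as a block 3, 3 and 1 of the 5 members were called, against 15.6%, 20.9% and 18.5% of genes.

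Other signals moved with the classes. The summed level of 5 sebaceous markers was 133 to 299 CPM in IFE I-like sums, 556 to 1347 CPM in IFE II-like sums and 325 to 700.0 CPM in upper HF-like sums, and that of 8 T cell markers, 7 of them detected, was 59.7 to 158 CPM in IFE I-like sums against 32.0 to 51.6 CPM in IFE II-like and 0 to 43.2 CPM in upper HF-like sums, without overlap in either list. The sebaceous markers include Elovl4, which was also among the leading genes of the cluster named IFE II. Upper HF-like sums also held 2235 to 4402 CPM of 8 IFE II markers, against 534 to 1830 CPM in IFE I-like sums. The keratins of that list were not higher there. Krt1 was at 9.59 to 77.0 CPM in upper HF-like and 41.7 to 271 CPM in IFE I-like sums. For Krt10 the ranges were 51.4 to 882 and 68.3 to 1091 CPM. The part of these markers in the values of Notch3, Nrarp and the other genes was not tested. The summed level of 10 lower hair follicle markers was 12397 to 26463 CPM in lower HF-like sums. In IFE I-like sums it was 2036 to 7531 CPM in EGFP mice, but 13470 and 17257 CPM in traced mice, within the lower HF-like range. Traced mice were also higher in IFE II-like sums (7079 and 9305 against 1506 to 5595 CPM) and upper HF-like sums (6986 and 7350 against 1914 to 3255 CPM). Postn, which is in that list, was at 118 and 51.2 CPM in the IFE I-like sums of traced mice. In their lower HF-like sums it was at 1809 and 1503 CPM. Mir1950 and Kcnq1ot1 summed to 24308, 35029, 48250, 1942 and 783 CPM in lower HF-like cells and to 10308, 21158, 36685, 586 and 704 CPM in IFE I-like cells, higher in lower HF-like cells in 5 of 5 mice. The 5 fibroblast markers, 4 of them detected, were likewise higher in 5 of 5 mice, at 34.6 to 117 CPM against 0 to 84.6 CPM, and the 8 upper hair follicle markers were at 1690 to 3322 CPM against 265 to 562 CPM. The part of these markers in the values of Jag1, Notch2, Hey1 and the other members in lower HF-like cells was not tested.

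Among the receptors, Notch3 was the one called between classes. In IFE I-like cells it was at 0, 4.98, 21.5, 3.02 and 4.27 CPM, and in IFE II-like cells at 0, 184, 92.9, 80.1 and 83.9 CPM. In upper HF-like cells it reached 0, 125, 63.0, 86.3 and 79.2 CPM. In each class the 0 was EGFP mouse 2, in which 0 Notch3 transcripts were found among 324503 from 107 cells, which allows up to 9.24 CPM at a limit of 3 counts. In the other 4 mice, IFE II-like and upper HF-like cells lay above every IFE I-like value.

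The log2 fold change of Notch3 was 3.64 in IFE II-like cells (SE 0.742, edgeR adjusted p = 0.00172) and 3.26 in upper HF-like cells (SE 0.769, edgeR adjusted p = 0.00474), each against IFE I-like cells. Summed over the mice, 78 transcripts in IFE II-like and 55 in upper HF-like cells stood against 8 in IFE I-like cells. Without EGFP mouse 2, the log2 fold changes were 3.65 and 3.32 (edgeR adjusted p = 2.16e-06 and 1.48e-05). The upper HF-like call was lost without traced mouse 1 (log2 fold change 2.91, edgeR adjusted p = 0.0772) or traced mouse 2 (3.09, 0.0582). In EGFP mice alone the log2 fold changes were 3.22 and 2.60 (edgeR adjusted p = 0.227 and 0.372).

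In lower HF-like cells Notch3 was at 0, 60.6, 16.5, 16.6 and 53.8 CPM, and the log2 fold change over IFE I-like cells was 2.02 (SE 0.839, edgeR adjusted p = 0.129). The lower HF-like sums of EGFP mouse 3 and traced mouse 2, which were highest in Notch3, were also highest in the spinous keratin Krt10, at 1825 and 4688 CPM, against 28.6, 1152 and 27.7 CPM in the other 3. The part of Krt10-bearing cells in the Notch3 value was not tested. With the mouse as a block, the edgeR adjusted p was 0.0131, in a fit that called 877 of 4197 genes. Notch3 was also called there without the filter (1.92, edgeR adjusted p = 0.0461), in traced mice alone (3.17, 0.0199) and without EGFP mouse 2 (2.10, 0.0113).

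Notch1 was found in every sum and its ranges overlapped between all classes. It was at 117, 69.7, 90.2, 87.6 and 59.7 CPM in IFE I-like cells and at 299, 92.2, 92.9, 136 and 115 CPM in IFE II-like cells, where it was higher than in the IFE I-like cells of the same mouse in 5 of 5 mice. In lower HF-like cells it was at 88.8 ± 42.2 CPM and in upper HF-like cells at 143 ± 82.3 CPM (SD, n = 5). The log2 fold changes over IFE I-like cells were 0.64 in IFE II-like (edgeR adjusted p = 0.439), 0.15 in lower HF-like (0.883) and, for upper HF-like cells, 0.74 (0.307).

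Notch2 was at 33.4, 14.9, 25.8, 30.2 and 25.6 CPM in IFE I-like cells, the class with the lowest mean. In lower HF-like cells it was at 162, 51.9, 38.4, 49.9 and 91.1 CPM, all above every IFE I-like value. The log2 fold change of Notch2 in lower HF-like cells was 1.58 (SE 0.532, edgeR adjusted p = 0.0508), just short of the threshold, and with the mouse as a block it was 1.54 (edgeR adjusted p = 0.0123). It was also called with DESeq2 (adjusted p = 0.0329) and, in edgeR fits, with RLE scaling (adjusted p = 0.0493), without the filter (0.0398) and at a clustering resolution of 0.5 (0.0479). Upper HF-like cells, at 58.5 ± 17.7 CPM, did not overlap IFE I-like cells, at 26.0 ± 6.97 CPM (SD, n = 5), with a log2 fold change of 1.15 (edgeR adjusted p = 0.230). IFE II-like cells ranged from 8.78 to 136 CPM (log2 fold change 1.24, edgeR adjusted p = 0.201).

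**Figure D3:**
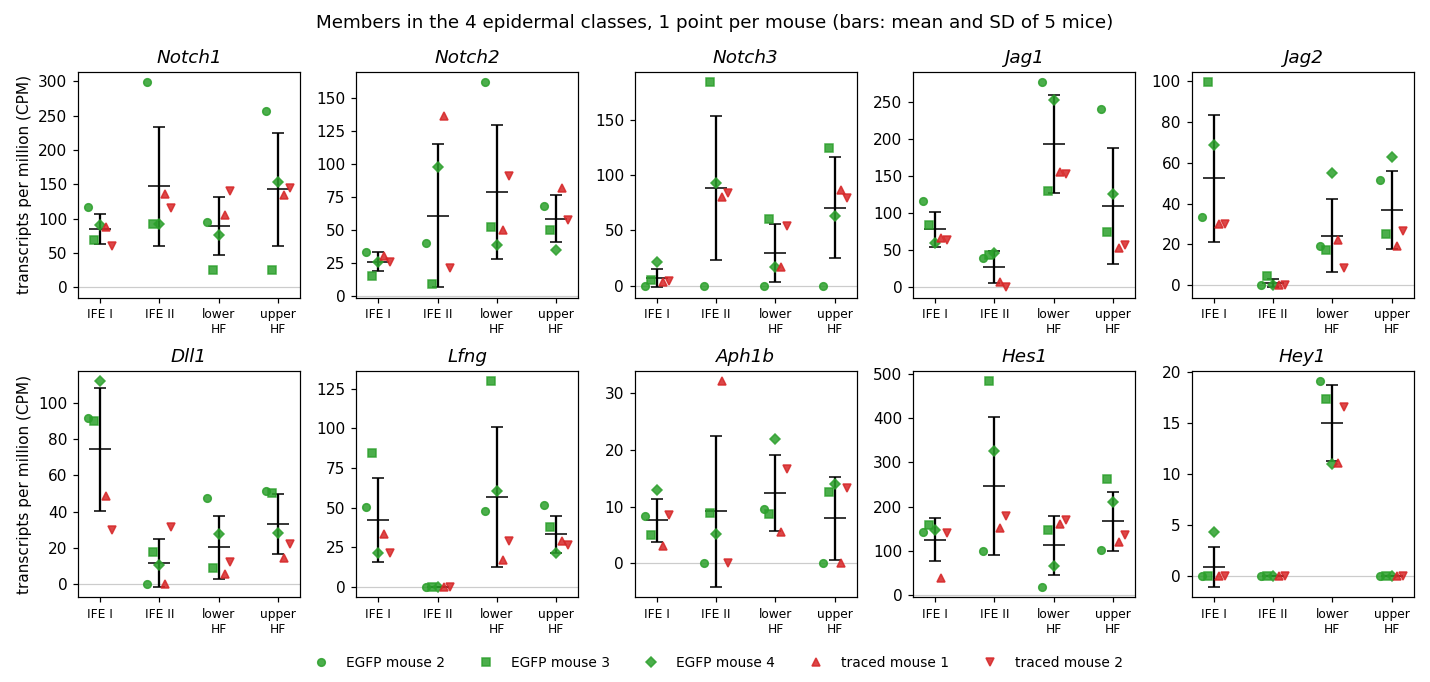
Each panel plots 1 member in CPM in the 4 epidermal classes, with 1 point per mouse (green, EGFP mice; red, traced mice) and the mean and SD of 5 mice in black. Jag1 was highest in lower HF-like cells, Lfng was at 0 in all 5 IFE II-like sums, and Hey1 lay between 11.0 and 19.1 CPM in lower HF-like cells.

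Among the ligands, Jag1 was highest in lower HF-like cells and lowest in IFE II-like cells. It was at 117, 84.6, 60.2, 66.5 and 64.0 CPM in IFE I-like cells and at 276, 130, 252, 155 and 153 CPM in lower HF-like cells. All 5 lower HF-like values were above all 5 IFE I-like values. Jag1 had a log2 fold change of 1.33 (SE 0.331, edgeR adjusted p = 0.00640), and the call was lost without EGFP mouse 4 (1.14, edgeR adjusted p = 0.0757), in EGFP mice alone (1.32, 0.103) and in traced mice alone (1.22, 0.0537).

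In IFE II-like cells Jag1 was at 39.8, 43.9, 46.4, 8.01 and 0 CPM, below every IFE I-like value. Its log2 fold change there was -1.48 (SE 0.427, edgeR adjusted p = 0.0266). The traced mice had 1 and 0 Jag1 transcripts there, and the call was lost without traced mouse 1 (-1.28, edgeR adjusted p = 0.180), without traced mouse 2 (-1.27, 0.111) and in EGFP mice alone (-0.98, 0.433). The test of a difference between traced and EGFP mice gave -2.74 on the log2 scale with an unadjusted edgeR p of 0.0194 and an adjusted p of 1.00, and no member passed it in any comparison. Before adjustment Hes1 in lower HF-like cells was the other member under the threshold, with a difference of 1.86 and an edgeR adjusted p of 1.00. Upper HF-like cells held 240, 75.1, 126, 52.7 and 57.2 CPM, which overlapped IFE I-like cells (log2 fold change 0.33, edgeR adjusted p = 0.691).

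Jag2 and Dll1 were highest in IFE I-like cells. Jag2 had 57 transcripts there, 4, 20, 16, 10 and 7 by mouse, and 1 transcript in all IFE II-like sums together. Its pooled level was 37.0-fold lower in IFE II-like cells, with a 95% interval from counting error of 6.37 to 1486. In the fit without the filter, in which 3.60% of genes were called, the edgeR adjusted p was 1.12e-05, and it ranged from 8.16e-07 to 0.00192 with a mouse left out. Lower HF-like cells held 20 and upper HF-like cells 24 Jag2 transcripts (edgeR adjusted p = 0.307 and 0.757 without the filter).

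Dll1 had 11, 18, 26, 16 and 7 transcripts in IFE I-like cells and 0, 4, 2, 0 and 3 in IFE II-like cells. In IFE II-like cells Dll1 was thus at 0, 17.6, 10.3, 0 and 31.5 CPM, which overlapped IFE I-like cells. It was higher there than in the IFE I-like cells of the same mouse in 1 of 5 mice, traced mouse 2. In CPM it was at 91.7, 89.6, 112, 48.3 and 29.9 in IFE I-like cells and at 47.6, 8.65, 27.4, 5.55 and 12.4 in lower HF-like cells, where it was lower than in the IFE I-like cells of the same mouse in each mouse. In the fit without the filter, the log2 fold change of Dll1 was -2.50 in IFE II-like cells (SE 0.603, edgeR adjusted p = 0.00192) and -1.95 in lower HF-like cells (SE 0.536, edgeR adjusted p = 0.00720; 5.47% of genes called). With a mouse left out, the log2 fold change ranged from -3.17 to -2.23 in IFE II-like and from -2.28 to -1.79 in lower HF-like cells. The edgeR adjusted p then reached 0.0628 in IFE II-like cells (without EGFP mouse 4). In lower HF-like cells it reached 0.0614, 0.0638 and 0.0706 without EGFP mouse 3, EGFP mouse 4 and traced mouse 1, and in EGFP mice alone, where Dll1 passed the filter, it was 0.165. Upper HF-like cells held 33.2 ± 16.7 CPM of Dll1 against 74.3 ± 33.9 CPM in IFE I-like cells (SD, n = 5; log2 fold change -1.32, edgeR adjusted p = 0.165).

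Lfng, which encodes the Fringe enzyme that adds sugar to Notch receptors and so shifts their response to Delta-like and Jagged ligands, was at 0 in all 5 IFE II-like sums. IFE I-like cells held 6, 17, 5, 11 and 5 transcripts. Against a limit of 3 counts over all IFE II-like cells, which held 726990 transcripts, the pooled level was at least 9.51-fold lower. In the fit without the filter the edgeR adjusted p was 6.84e-06, and it ranged from 2.14e-06 to 0.00293 with a mouse left out. The T cell markers were also higher in IFE I-like than in IFE II-like sums, and T cell-like wells held 176 CPM of Lfng; their part in the Lfng difference was not tested. Lower HF-like cells were at 47.6, 130, 60.4, 16.6 and 29.0 CPM and upper HF-like cells at 51.4, 37.5, 21.0, 28.8 and 26.4 CPM, both overlapping IFE I-like cells. In upper HF-like cells 0 of the 5 members under the filter were called without it, against 4.41% of genes.

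The promoter windows of RefSeq (GRCm38.p6; 250 bases before to 50 after the start) were searched on both strands for TGGGAA, the core bound by RBPJ. Of the 10 members 8 were in the table, all but Hes1 and Hey1, and 1 of the 8, Lfng, held the motif, against 25.6% of all 32851 windows. A stretch of 120 bases of this window (chr5:140607181-140607300, plus strand) is shown because Lfng was the member that held the motif; capitals mark both matches, which begin 135 and 108 bases before the start, the first on the minus strand.
Lfng: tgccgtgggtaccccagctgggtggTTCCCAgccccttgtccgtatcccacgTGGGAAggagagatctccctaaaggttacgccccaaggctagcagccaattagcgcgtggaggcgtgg
A match of these letters is a description and not a site of binding.

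Aph1b, chosen by its bulk values, was measured here in libraries that the choice did not use. Whether a mouse gave both bulk and single-cell libraries is not given in the sources used here. IFE I-like cells held 8 transcripts, IFE II-like cells 7, lower HF-like cells 11 and upper HF-like cells 6, at most 4 in any sum. The pooled ratio to IFE I-like cells was 1.35 in IFE II-like (95% counting interval 0.416 to 4.26), 1.89 in lower HF-like (0.692 to 5.41) and, for upper HF-like cells, 1.21 (0.345 to 3.97). Lower HF-like cells were above the IFE I-like cells of the same mouse in 5 of 5 mice, IFE II-like cells in 2 and upper HF-like cells in 3. The ranges overlapped in each case. The fit without the filter called no difference between classes at this depth.

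Hes1 was highest in IFE II-like cells, at 99.5, 483, 325, 152 and 178 CPM, against 142, 159, 146, 39.3 and 141 CPM in IFE I-like cells. It was higher than in the IFE I-like cells of the same mouse in 4 of 5 mice, all but EGFP mouse 2. The log2 fold change of Hes1 was 1.06 (SE 0.435, edgeR adjusted p = 0.152). With the mouse as a block it was 1.04 (edgeR adjusted p = 0.0211, in a fit that called 654 of 4197 genes), and without EGFP mouse 2 it was 1.24 (edgeR adjusted p = 0.00597). Lower HF-like cells, at 19.1, 147, 65.8, 161 and 170 CPM, and upper HF-like cells, at 103, 263, 210, 120 and 136 CPM, overlapped IFE I-like cells (log2 fold changes 0.02 and 0.44, edgeR adjusted p = 0.989 and 0.666).

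Hey1, the other target, had 2, 2, 2, 2 and 4 transcripts in lower HF-like cells, 1 in IFE I-like cells and 0 in IFE II-like and upper HF-like cells. Of 13 transcripts in the 20 sums, 12 were thus in lower HF-like cells, in which every mouse had at least 2. Pooled, lower HF-like cells were 16.5-fold higher than IFE I-like cells, with a 95% interval from counting error of 2.44 to 704. The fit without the filter did not call it (edgeR adjusted p = 0.109).

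Ordered by mean level, the classes separated at few places. Lower HF-like cells were first for Jag1, Notch2, Lfng, Hey1 and Aph1b, IFE II-like cells for Notch1, Notch3 and Hes1, and IFE I-like cells for Jag2 and Dll1. Neighbours in this order did not overlap between upper HF-like and IFE I-like cells in Notch2, between IFE I-like and IFE II-like cells in Jag1, between lower HF-like and IFE II-like cells in Jag2, between upper HF-like and IFE II-like cells in Lfng and between lower HF-like and IFE I-like cells in Hey1. All other neighbours overlapped.

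Of the pathway list, 12 genes could be tested between classes. In IFE II-like cells 1 was higher and 1 lower than in IFE I-like cells (10.1% of all genes called), in lower HF-like cells 1 was lower (13.6%), and in upper HF-like cells 1 was higher (11.5%). With the mouse as a block 3, 3 and 2 were called, against 15.6%, 20.9% and 18.5% of genes, so these shares lay near those of all genes. The block added Neurl1b in IFE II-like cells (-2.07, edgeR adjusted p = 0.0228), Dlk2 in upper HF-like cells (-1.28, edgeR adjusted p = 0.0372) and, in lower HF-like cells, Furin (0.95, edgeR adjusted p = 0.0386) and Rbpj (1.05, edgeR adjusted p = 0.0379), the last pair named after their values were seen. Some other settings called these genes too: with the block among them, Neurl1b was called under 6 of 12 alternatives, Dlk2 under 2 of 12, Furin under 3 of 14 and Rbpj under 4 of 11. The median log2 fold change of the 12 was 0.22, 0.22 and 0.29 in these comparisons.

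Nrarp, a Notch target that feeds back on the pathway, was at 41.7, 54.8, 38.7, 21.2 and 42.7 CPM in IFE I-like cells, at 259, 259, 294, 160 and 210 CPM in IFE II-like cells and at 257, 313, 259, 177 and 264 CPM in upper HF-like cells. In both classes every value lay above every IFE I-like value. The log2 fold change of Nrarp was 2.56 in IFE II-like cells (SE 0.401, edgeR adjusted p = 0.000140) and 2.68 in upper HF-like cells (SE 0.400, edgeR adjusted p = 4.49e-05). In lower HF-like cells it was at 64.8 ± 51.9 CPM (SD, n = 5; log2 fold change 0.82, edgeR adjusted p = 0.256).

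Dlk2, a ligand-like protein of the Delta family, was at 117, 184, 98.8, 45.3 and 68.3 CPM in IFE I-like cells and at 0 to 8.01 CPM in IFE II-like cells. Its log2 fold change was -4.34 in IFE II-like cells (SE 0.663, edgeR adjusted p = 0.000105) and -2.25 in lower HF-like cells (SE 0.493, edgeR adjusted p = 0.00210). Both calls were lost in traced mice alone (-3.50 and -1.51, edgeR adjusted p = 0.0957 and 0.247). No value of either class reached the IFE I-like range.

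**Figure D4:**
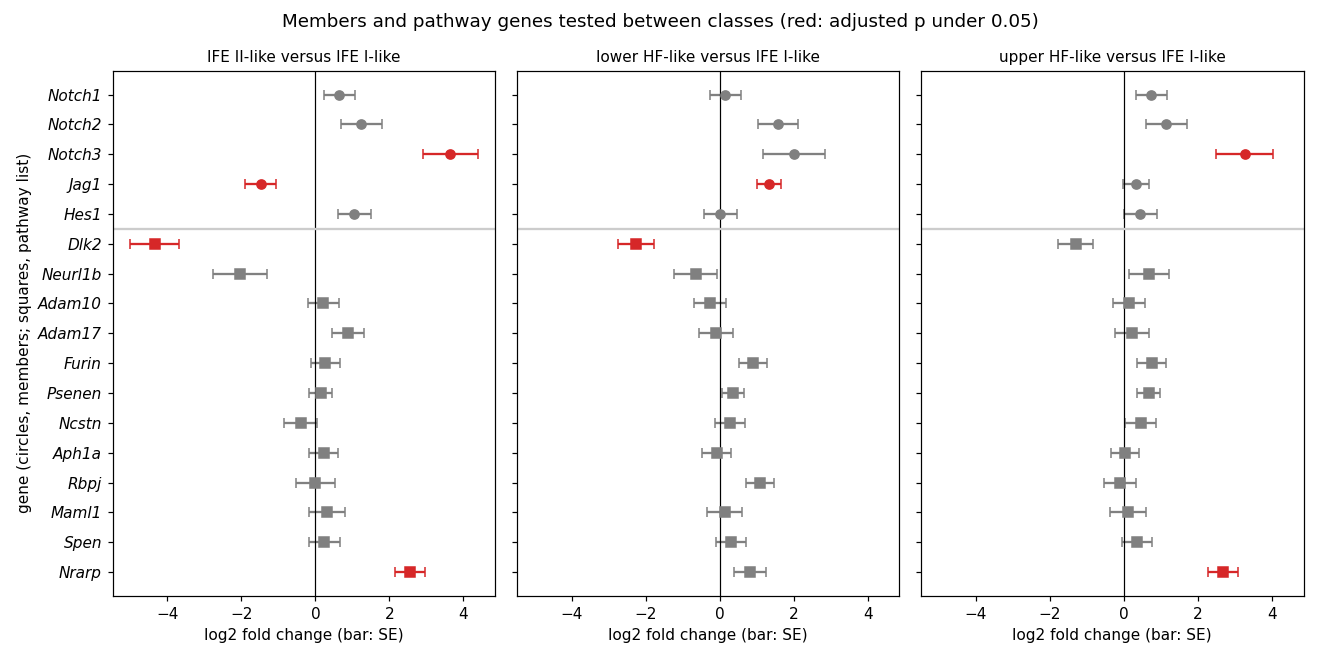
Points give the log2 fold change over IFE I-like cells with its SE for the 5 members tested (circles) and the 12 genes of the pathway list tested (squares), in red where the edgeR adjusted p was under 0.05. Notch3 and Nrarp lay to the right in IFE II-like and upper HF-like cells, Jag1 lay on opposite sides in IFE II-like and lower HF-like cells, and Dlk2 lay to the left in each panel.

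For the 3 members with most transcripts in the sums, the tested genes with the most similar levels were sought over the 20 sums, as Pearson's r of log2(CPM + 10). Hes1 was most like Prom2 (0.85), Wbp2 (0.79) and Dapl1 (0.79), Notch1 most like Uba3 (0.84), Fnbp1l (0.83) and Shfm1 (0.83), and Jag1 most like Sdcbp (0.88), Lgr4 (0.88) and Crim1 (0.87). The sums share mice, plates and depth, and the values are a description.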

How the data were processed

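Bulk values (CEL-Seq2) are whole-number counts per gene as deposited, and for the plates (SORT-seq) the authors deposited estimated transcript counts per well: molecular barcodes corrected for repeats, which turned back into whole barcodes within 1e-06. The submitters' processing notes name BWA 0.6.2-r126 and mm10, and for bulk also hg19; how shared reads were counted is not given in the sources used here. Members and lists were chosen with earlier results of these data known. Wells with at least 1000 transcripts were clustered with Seurat 5.3.0 (SCTransform, 3000 variable genes, 20 components, resolution 0.8), and traced wells took EGFP classes by label transfer. Doublets were not called. Clusters led by Mir1950 and Lipi and the T cell-like and Langerhans-like wells were set apart. Sums of at least 10 cells, rounded, and bulk counts were tested with edgeR 4.0.16 (R 4.3.3; TMM, filterByExpr, quasi-likelihood, Benjamini-Hochberg at 0.05 over all genes tested), with an experiment term for the sums. The test was also run on simulated data, whose outcome is not given here, and nothing is read from that run. CPM use TMM sizes; pooled ratios and intervals use plain totals and cover counting error only.

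Genes named were the members, genes of the pathway list past the main test, Aph1c, genes most like a member and population markers, and, after their values were seen, Furin, Rbpj, Notch4, Dll3 and Dll4; 1 gene of that list is not reported here. The classes come from the same wells as the tests. Numbers pair populations or classes of 1 mouse. Deviations from group means correlated across genes by 0.06 to 0.09 in bulk. Between classes they correlated by 0.27 to 0.66 in EGFP mice and by -0.03 to 0.07 in traced mice. The main fit leaves this pairing out. The block is an alternative, since no mouse term is stated in the study's methods; others were DESeq2 1.42.0, RLE, no filter, observed barcodes, 5 cells, resolution 0.5, each experiment alone and each library or mouse left out. Positions are from GENCODE M21.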

Additional observations from a re-analysis of the deposited data

Results flagged for a closer look

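Among 20 groups of 5 class sums screened, 3 held a value far from the other 4, and chance gives about 1 in 20. Hes1 in the IFE I-like cells of traced mouse 1 was low, at 39.3 CPM against 141 to 159 CPM in the other mice. Notch1 in the IFE II-like cells of EGFP mouse 2 was high at 299 CPM, against 92.2 to 136 CPM. Notch3 in the IFE I-like cells of EGFP mouse 4 was high at 21.5 CPM, from 5 transcripts.

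Wells outside the 4 epidermal classes also held members above the limit of 3 counts, given here as plain CPM pooled over mice. T cell-like wells had 176 CPM of Lfng (27 transcripts, exact 95% Poisson interval 116 to 256, counting error only), 45.7 CPM of Notch1 and 26.1 CPM each of Notch2 and Jag2. Langerhans-like wells had 54.6 CPM of Notch2 from 7 transcripts. The cluster led by Mir1950 had 45.9 CPM of Notch3, 36.7 CPM each of Jag1 and Dll1 and 91.8 CPM of Hes1, and that led by Lipi had 95.8 CPM of Notch1, 83.9 CPM of Jag1 and 132 CPM of Hes1.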

How the results depend on the processing

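Of 461 repeats of 39 results under another setting, 404 kept their direction and side of the threshold, 17 lost a call, 13 gained one, 23 changed sign and 4 moved beyond the replicate spread. The calls that changed stand beside their results in the text above, and the cause was not tested. Depth limits Aph1b and Hey1 most, with at most 4 transcripts in any sum.

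Genes called between Troy-EGFP+ and Troy-EGFP- cells (328) numbered 141 with DESeq2, 151 with those libraries alone and 131 to 751 with 1 library left out. Against viable cells Troy-EGFP+ cells (22) gave 10 with DESeq2, 43 without the filter, 49 with the mouse as a block and 7 to 124 with 1 left out, and Troy-EGFP- cells (83) gave 33, 133, 163 and 27 to 464. The IFE II-like count (423) was 646 with DESeq2, 654 with the block, 112 in EGFP mice alone and 232 to 664 with a mouse left out. The lower HF-like count (571) was 972 with DESeq2, 927 without the filter, 877 with the block, 227 in EGFP mice alone and 378 to 873 with a mouse left out, and the upper HF-like count (483) was 783, 747, 776, 169 and 310 to 764. The block changed no call of a member or pathway gene named here other than those given with it.

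No change of sign was to a value that passed a test or from one that did; the -3.06 of Jag2 below passed but kept its sign. Jag1 in Troy-EGFP+ against Troy-EGFP- cells was 0.11 without the filter, Hes1 in lower HF-like cells -0.078 without the filter, -0.98 in EGFP mice alone and -0.034 at resolution 0.5, Notch1 in lower HF-like cells -0.12 with 5 cells per sum and -0.48 in EGFP mice alone, and Jag1 in upper HF-like cells -0.26 in traced mice alone. With 1 library left out, Troy-EGFP+ against Troy-EGFP- cells ranged from -0.50 to 0.065 for Hes1 and from -0.38 to 0.17 for Jag1. Troy-EGFP+ against viable cells ranged from -0.20 to 0.33 for Jag1, from -0.12 to 0.25 for Notch1 and from -0.25 to 0.38 for Notch3. Troy-EGFP- against viable cells ranged from -0.41 to 0.13 for Hes1, from -3.06 to 0.43 for Jag2 and from -2.49 to 0.10 for Notch3. With a mouse left out, lower HF-like cells ranged from -0.46 to 0.31 for Hes1 and from -0.22 to 0.34 for Notch1. Without the filter and with a mouse left out, which was chosen after seeing the data, as was the block without the filter, Aph1b ranged from -0.75 to 0.85 in IFE II-like and from -0.23 to 0.32 in upper HF-like cells, where it was -0.11 without EGFP mouse 3.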

Other observations

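EGFP mouse 1, which entered no comparison between classes, held 18 transcripts of Notch1, 9 of Notch2, 1 of Notch3, 8 of Jag1, 7 of Dll1, 18 of Hes1, 1 of Hey1 and 2 of Lfng in its 71 kept wells, and 0 of Jag2 and Aph1b. Of the receptor and ligands outside the 10 members, Notch4, which is known from endothelium, had 3 transcripts in the 1109 kept wells, Dll3 had 1 and Dll4 had 0.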
